A study of Danio rerio with 12 samples.

Results

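Zebrafish moonshine mutants (mon) were set against their own siblings at 22 hours post fertilization (hpf), shortly after the mutants could first be told apart. The comparison takes the 3 mon libraries of that stage, from clutches 9, 11 and 13, and the 3 sibling libraries of the same clutches, so 6 of the 12 libraries of the study. They were chosen by their labels alone, and each mon library was compared with the sibling library of its clutch. Every library is the RNA of 30 whole embryos pooled by phenotype, and every clutch is the brood of a single pair of fish. The mon embryos are homozygous by phenotype only, for an allele that the labels do not name. Carriers of the mutation may be among the siblings, which the labels call wild-type/het. Both groups received no treatment and carried 1 copy of the drl:EGFP reporter, inherited from 1 parent, and from about 21 hpf the embryos with weak green fluorescence were sorted out as mon. The other 6 libraries hold the same groups at 30 hpf, from clutches 3, 4 and 9.

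Moonshine is a mutation of trim33, which encodes TIF1γ, a cofactor that works on chromatin and helps RNA polymerase II move from pausing into elongation at blood genes. In zebrafish the first red blood cells come from the lateral mesoderm, where tal1 and then gata1a set the erythroid fate. Globins, the heme pathway, iron uptake and the red cell membrane are switched on next, and mutants of moonshine lack red blood cells.

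The 6 libraries held 18233320 to 21361896 gene counts, with 26261 to 26507 genes detected in each. Levels are given in CPM, the count of a gene scaled to the size of its library (with TMM factors), in the order of clutches 9, 11 and 13. Fold changes are mon over sibling on the log2 scale with their standard error, fitted within clutches by the quasi-likelihood test of edgeR, and a gene is called at an adjusted p under 0.05 (Benjamini-Hochberg, over 21778 genes). The folds rest on 3 clutches, and the spread behind the p-values was estimated over all 12 libraries of both stages. Taken gene by gene, an exact permutation test of 3 libraries against 3 cannot go below a two-sided p of 0.1, and one within 3 pairs cannot go below 0.25. CPM is not divided by gene length, so levels are compared between groups and not between genes.

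The mutated gene itself was lower in mutants. The transcript of trim33 (ENSDARG00000016181) stood at 50.7, 57.6 and 67.6 CPM in mon and at 85.7, 84.1 and 89.3 CPM in siblings. Every mon library lay below every sibling library, and the log2 fold change was -0.57 ± 0.06 (edgeR, adjusted p = 1.49e-13). At 30 hpf it was -0.08 ± 0.05 (edgeR, adjusted p = 0.614). The difference between the stages passed the test within clutches (edgeR, adjusted p = 1.41e-05) and did not without the clutch in the model (adjusted p = 0.415).

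The test called 322 of 21778 genes, a share of 1.48%. Of these 138 were higher in mon (0.634% of genes tested) and 184 were lower (0.845%), and 134 changed at least 2-fold. All 3 clutches moved in 1 direction for 319 of the 322, against 28.9% of all genes, and the groups did not overlap for 258, against 8.45% of all genes. The same fit of 12 libraries without the clutch in the model called 97 of the same 322 genes and no others (0.445%), 29 higher (0.133%) and 68 lower (0.312%). The median log2 fold change over all genes was 0.003.

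Erythroid genes were among the largest falls. The 10 blood lists held 166 tested genes, of which 51 were lower and 3 higher, 32.5% against the 1.48% of all genes. Without the clutch in the model 40 of them were lower and none was higher. The lists were chosen with earlier results of these data known, so these shares are descriptions. Since whole embryos were sequenced, fewer red cell precursors and less RNA in each of them cannot be told apart. The mutants were sorted by weak fluorescence of a reporter of drl, itself a gene of the blood lists. Falls of other blood genes may therefore not be independent of the sort, and how much the sort adds was not tested.

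The master regulator of the lineage was far lower in mon. The transcription factor gene gata1a (ENSDARG00000013477) stood at 0.532, 0.363 and 0.161 CPM in mon and at 7.27, 5.97 and 6.41 CPM in siblings (log2 -4.18 ± 0.30, edgeR, adjusted p = 3.68e-20). Its partner klf1, known in mammals to switch on globin and membrane genes, stood at 0.0484, 0.499 and 0.107 CPM in mon and at 2.29, 1.19 and 1.90 CPM in siblings. The groups did not overlap, and the log2 fold change of klf1 was -2.93 ± 0.42 with an adjusted p of 1.51e-06 in edgeR. Clutch 11 had the smallest difference, and the log2 fold change was -4.67 without it and -2.25 without clutch 9. The repressor gene gfi1b fell by 1.83 ± 0.22, and the erythropoietin receptor gene epor, whose product carries the survival signal of red cell precursors, fell by 2.41 ± 0.35 (edgeR, adjusted p = 3.22e-10 and 3.18e-07).

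Factors that act earlier in blood, or in other tissues too, were called in part. The gene tal1, needed for all blood and also used by endothelium and neurons, stood at 20.8, 22.4 and 21.1 CPM in mon and at 32.3, 37.7 and 36.9 CPM in siblings. Its log2 fold change was -0.73 ± 0.10 (adjusted p = 6.17e-07 in edgeR). The tal1 call was lost without the clutch in the model of 12 libraries (adjusted p = 0.161) and held in that of the 6 libraries of 22 hpf (0.00567). The progenitor factor myb fell by 0.54 ± 0.09 and the Krüppel-like factor klf17, which also marks the hatching gland, by 1.14 ± 0.10 (edgeR, adjusted p = 6.93e-06 and 2.64e-15). Neither the tal1 partner lmo2 (log2 -0.37 ± 0.11, edgeR, adjusted p = 0.0659) nor runx1, the hallmark of blood stem cells (-0.15 ± 0.27, adjusted p = 0.955), was called. In sum 11 of 20 erythroid regulators were lower and none higher (7 lower without the clutch in the model), a share of 55.0% against 1.48% of all genes. Their median log2 fold change was -0.35. Those not called included stat5a (-0.01), cbfa2t3 (-0.10) and nfe2 (0.08).

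The list of blood stem and hemogenic cells had 4 lower of 12 (33.3%, against 1.48% called of all genes), with a median of -0.26. The lymphoid factor gene ikzf1 fell by 2.48 ± 0.29 (edgeR, adjusted p = 4.1e-10). The repressor gene gfi1aa fell by 1.56 ± 0.38 (edgeR, adjusted p = 0.00931), but its groups overlapped and the call was lost without the clutch in the model (adjusted p = 0.71), without clutch 11 (0.334) and without clutch 13 (0.346). The other members of the 4 were tal1 and myb. The genes gfi1aa, tal1 and myb are also counted in the list of erythroid regulators.

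**Figure D1:**
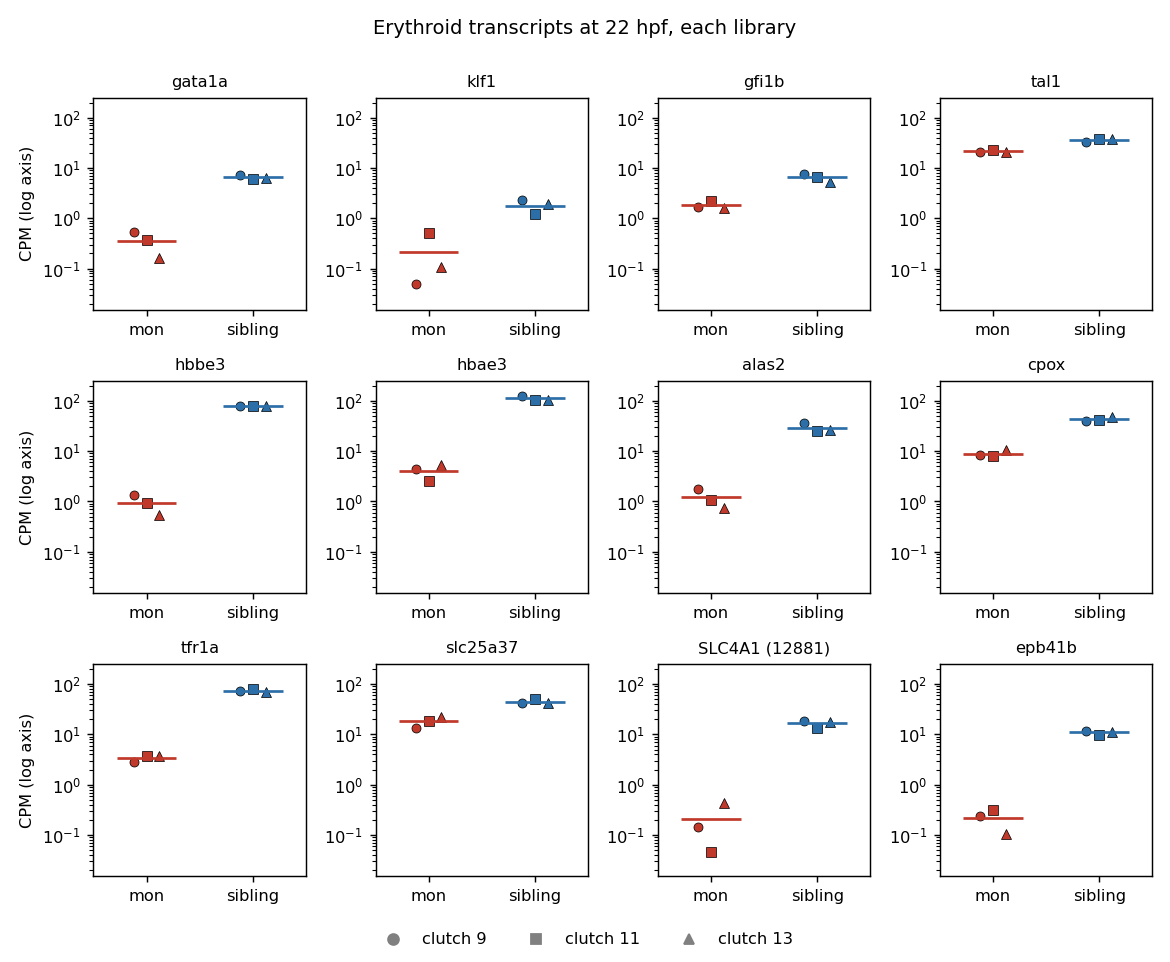
Levels of 12 erythroid genes (CPM, log axis) in each 22 hpf library, with mon on the left of each panel and siblings on the right. Points are libraries, shapes are clutches and bars are the means of 3 libraries. In every panel the 3 mon libraries lie below the 3 sibling libraries, by the least for tal1.

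Globin transcripts were detected in siblings at low levels and hardly at all in mutants. The beta-type embryonic globin hbbe3 (ENSDARG00000038147) stood at 1.35, 0.953 and 0.536 CPM in mon and at 77.7, 78.9 and 80.6 CPM in siblings (log2 -6.35 ± 0.11, edgeR, adjusted p = 2.34e-28). The alpha-type embryonic globin hbae3 (ENSDARG00000079305) stood at 4.50, 2.54 and 5.26 CPM in mon and at 128, 106 and 104 CPM in siblings (log2 -4.80 ± 0.14, adjusted p = 9.38e-06). Every sibling library held far more of both than any mon library.

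All 11 globin genes tested were lower in mon, with a median log2 fold change of -4.80, and 10 were lower without the clutch in the model. Not called there was hbae1.3 (edgeR, adjusted p = 1.29e-25 within clutches and 0.0603 without the clutch). In the 6 libraries of 22 hpf without the clutch hbae1.3 was called (adjusted p = 0.0121) and HBE1 (ENSDARG00000113599) was not (0.135). The copy hbae5 had 0 reads in all 3 mon libraries and 1.98, 2.04 and 2.00 CPM in siblings, at least 41.0-fold lower when the mon group is set to the limit of 3 counts over its libraries. The gene under the orthologue symbol HBE1 with the ID ENSDARG00000113599 differed in level between clutches, at 3.73, 1.95 and 0.805 CPM in mon and at 92.7, 82.1 and 44.0 CPM in siblings. It fell in each clutch, by 5.08 ± 0.09 over the 3 (edgeR, adjusted p = 2.19e-32). A further 5 globin genes had too few reads to be tested. The globin list took 0.00127, 0.000871 and 0.00109% of all counts in mon and 0.0389, 0.0343 and 0.0323% in siblings. Globin copies are nearly identical and may share or lose reads in the counting, so values of single copies are uncertain.

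Most enzymes of the heme pathway were lower, by the most at its entry. The gene of the erythroid form of the first enzyme, alas2 (ENSDARG00000038643), stood at 1.79, 1.09 and 0.751 CPM in mon and at 35.9, 25.0 and 26.6 CPM in siblings (log2 -4.58 ± 0.13, edgeR, adjusted p = 2.91e-45). Its housekeeping counterpart alas1 was not called (log2 -0.04 ± 0.06, adjusted p = 0.947).

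Further down the pathway, falls were smaller. The gene of coproporphyrinogen oxidase, cpox, stood at 8.32, 7.89 and 10.6 CPM in mon and at 40.2, 41.1 and 47.9 CPM in siblings, and fell by 2.27 ± 0.09 (edgeR, adjusted p = 9e-37). That of uroporphyrinogen decarboxylase, urod, fell by 1.46 ± 0.07, those of protoporphyrinogen oxidase, ppox, by 1.08 ± 0.17, of ALA dehydratase, alad, by 0.82 ± 0.09 and of ferrochelatase, fech, by 0.78 ± 0.09. The mitochondrial transporter gene abcb10 fell by 0.78 ± 0.12. In all 9 of 17 genes of heme synthesis were lower and none higher, with or without the clutch in the model. This is 52.9%, against 1.48% of all genes with the clutch and 0.445% without it. The median of the list was -0.58. The gene of uroporphyrinogen synthase, uros, stood just outside the call (log2 -0.51 ± 0.15, edgeR, adjusted p = 0.0644).

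Iron genes split sharply. The transferrin receptor gene tfr1a (ENSDARG00000101322), which brings iron into red cell precursors, stood at 2.85, 3.77 and 3.76 CPM in mon and at 73.6, 78.7 and 70.2 CPM in siblings (log2 -4.43 ± 0.09, edgeR, adjusted p = 1.78e-58). Its copy tfr1b, used more widely in the embryo, stood at 39.4, 30.5 and 40.3 CPM in mon and at 31.0, 32.2 and 44.1 CPM in siblings (log2 0.04 ± 0.08, adjusted p = 0.956). Only tfr1a of the pair was called.

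The mitochondrial iron importer gene slc25a37 fell by 1.31 ± 0.12 (edgeR, adjusted p = 1.35e-06). The ferrireductase gene steap3 fell by 3.07 ± 0.52 (adjusted p = 1.79e-05), a call lost in the test that ignores the clutch (0.091). The ferritin genes fth1a and fthl27 moved little and in opposite directions, at log2 -0.13 ± 0.03 and 0.19 ± 0.04 (edgeR, adjusted p = 0.0222 and 0.00974). Both had overlapping groups, and both calls were lost without the clutch in the model (adjusted p = 1.0 for each) and without clutch 9 (0.618 and 0.729). The fth1a call was lost without clutch 11 too (0.156). Of 18 iron genes 4 were lower and 1 higher (2 and 0 without the clutch in the model). The share called was 27.8%, against 1.48% of all genes, and the median was -0.08.

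Membrane genes ranged from near loss to no call. The anion exchanger of the red cell, SLC4A1 (ENSDARG00000012881), stood at 0.145, 0.0454 and 0.429 CPM in mon and at 18.4, 13.5 and 17.6 CPM in siblings (log2 -6.35 ± 0.19, edgeR, adjusted p = 4.65e-42, and log2 -7.32 without clutch 13). The gene epb41b, for an anchor of the membrane skeleton, fell by 5.54 ± 0.25. The spectrin gene sptb stood at 27.1, 18.9 and 16.6 CPM in mon and at 68.1, 53.7 and 51.6 CPM in siblings, and fell by 1.48 ± 0.06 (adjusted p = 1.15e-38).

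The adducin gene add2 fell by 1.09 ± 0.17 and the water channel gene AQP1 (ENSDARG00000023713), shared with endothelium, by 1.62 ± 0.15 (edgeR, adjusted p = 1.33e-06 and 6.17e-15). Another gene named SLC4A1 (ENSDARG00000024560) fell by 0.85 ± 0.19 (adjusted p = 0.00354), a call lost without the clutch in the model (0.0936), without clutch 9 (0.119) and without clutch 13 (0.084). The glucose transporter gene SLC2A1 (ENSDARG00000001437), which is also a hypoxia marker, fell by 0.47 ± 0.08 (adjusted p = 2.97e-05, and 0.136 without the clutch in the model). In all 7 of 21 membrane genes were lower, 5 of them without the clutch in the model, and the median was -0.25. The share called was 33.3%, against 1.48% of all genes. The Rh glycoprotein gene rhag (-0.25) and the ankyrin gene ANK1 (ENSDARG00000059093, -0.17) were not called.

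Most genes of maturing red cells were not called at 22 hpf. Of 25 genes of red cell enzymes and maturation 3 were lower and 1 higher (16.0% called, against 1.48% of all genes), with a median of -0.05. The gene RFESD (ENSDARG00000058725), for an iron-sulfur domain protein, stood at 0, 0.0907 and 0.107 CPM in mon and at 6.05, 5.77 and 4.41 CPM in siblings (log2 -6.25 ± 0.43, edgeR, adjusted p = 3.24e-21, and log2 -5.62 without clutch 9). The red cell carbonic anhydrase gene cahz stood at 25.7, 15.6 and 17.1 CPM in mon and at 36.3, 22.4 and 21.6 CPM in siblings. It was lower in each clutch, yet the groups overlapped, and its fall of 0.46 ± 0.08 (adjusted p = 9.67e-05) was lost without the clutch in the model (adjusted p = 1.0). The glutathione synthesis gene gclm rose by 0.32 ± 0.08 (edgeR, adjusted p = 0.00737), a call lost without the clutch in the model (0.289), without clutch 9 (0.0586) and without clutch 13 (0.233). The nucleotidase gene nt5c2l1 was not called (log2 0.11 ± 0.09, adjusted p = 0.839).

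The draculin family encodes zinc finger proteins of the lateral mesoderm and the blood that comes from it. Of 11 members 4 were lower (36.4%, against 1.48% called of all genes), with a median of -0.02. The gene drl itself stood at 1.60, 1.95 and 1.56 CPM in mon and at 7.88, 7.41 and 9.69 CPM in siblings (log2 -2.27 ± 0.20, edgeR, adjusted p = 3.24e-15). The mutants were picked by a reporter of this gene, so its fall is not independent of the sort. Its copies drll.1 and drll.2 fell by 3.18 ± 0.35 and 2.55 ± 0.47 (edgeR, adjusted p = 3.43e-11 and 8.32e-05), and drll.2 was not called without the clutch in the model (0.0916). The log2 fold change of drll.2 was -3.37 without clutch 13. A further member of the list, znfl2a, fell by 0.89 ± 0.11. The other 7, such as znfl1k at 42.0, 46.1 and 46.3 CPM in mon and 41.9, 44.7 and 45.2 CPM in siblings, were not called.

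Other blood lineages showed few calls. Of 30 tested myeloid genes 1 was lower and 1 higher, 6.67% against the 1.48% of all genes. The median log2 fold change of the list was -0.19. The peroxidase gene EPX (ENSDARG00000019521) stood at 0.0968, 0.227 and 0.215 CPM in mon and at 6.21, 3.23 and 5.85 CPM in siblings, a fall of 4.76 ± 0.30 (edgeR, adjusted p = 6.71e-24). The symbol is that of an orthologue, and the gene named epx itself (ENSDARG00000012535) had too few reads to be tested. The myeloid master regulator SPI1 (ENSDARG00000000767) averaged 2.96 ± 0.478 CPM in mon and 3.78 ± 0.279 CPM in siblings (SD, n = 3 each; log2 -0.35 ± 0.23, edgeR, adjusted p = 0.743). The summed level of the myeloid list was 330, 530 and 466 CPM in mon and 342, 515 and 435 CPM in siblings, and the neutrophil gene lyz was at or near 0 in all 6 libraries. The inflammatory factor gene cebpb rose by 0.39 ± 0.10 (adjusted p = 0.0244), a call lost without the clutch in the model (0.532) and without clutch 13 (0.831). Of 7 thrombocyte genes only the platelet glycoprotein gene gp1bb was called, with a fall of 2.55 ± 0.50 (edgeR, adjusted p = 0.000292), lost without clutch 9 (0.0688).

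**Figure D2:**
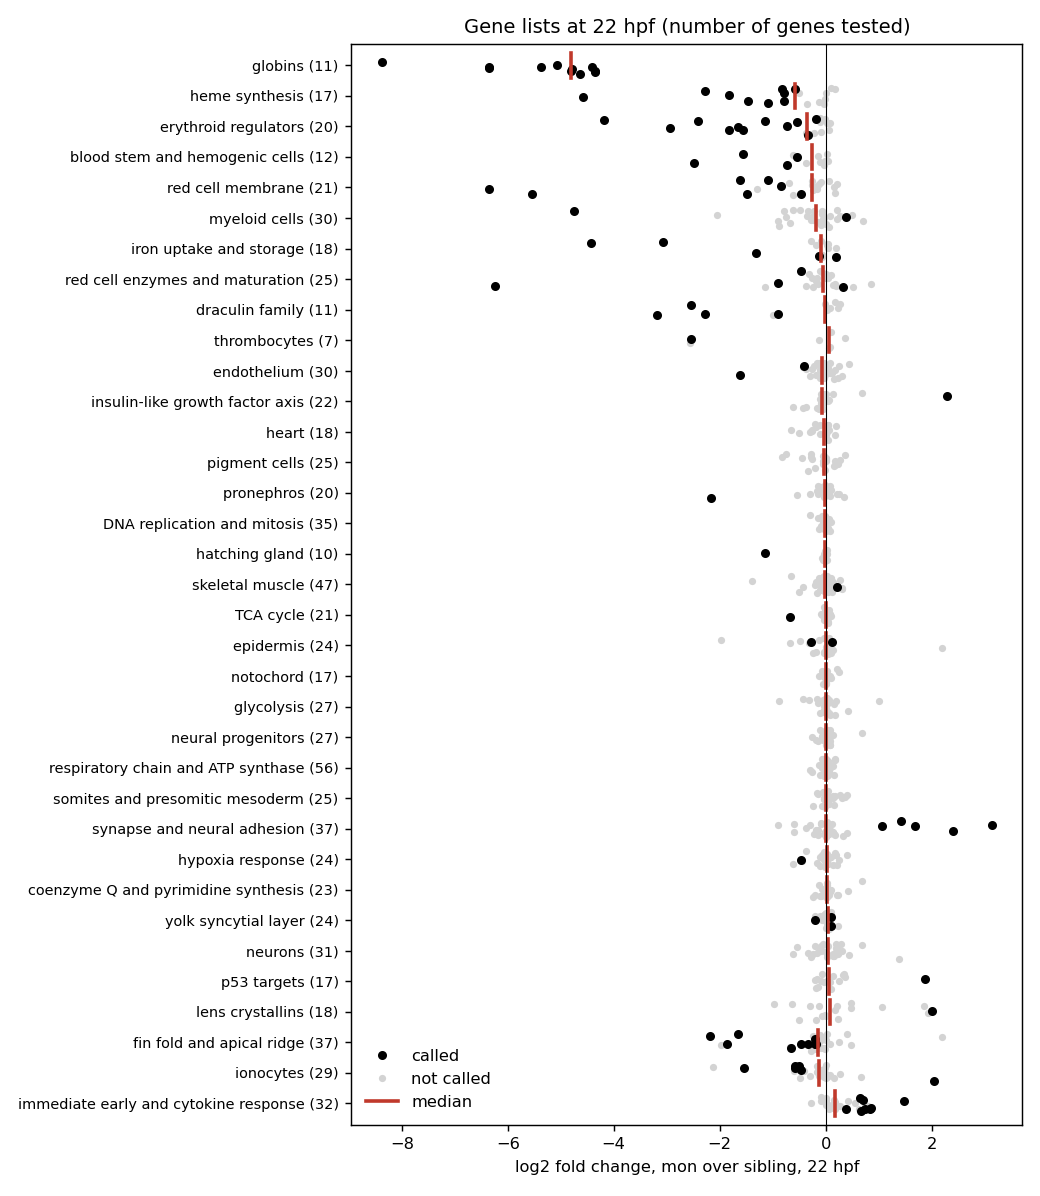
Log2 fold change, mon over sibling, of every tested gene of 35 lists at 22 hpf, with called genes in black, others in grey and a red bar at the median. Blood lists are at the top and the 3 lists at the bottom were chosen after values were seen. The globins stand apart at a median of -4.80, and most lists of other tissues are centred on 0.

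Outside the blood lists 268 genes were called, 135 higher and 133 lower, 1.24% of the 21612 such genes tested. Without the clutch in the model 57 of these were called, 29 higher and 28 lower. The summed level of 47 skeletal muscle genes was 19600, 17300 and 17600 CPM in mon and 18000, 14900 and 15500 CPM in siblings, higher in mon in each clutch, with only the methyltransferase gene SMYD1 (ENSDARG00000091253) called among them (log2 0.21 ± 0.05, edgeR, adjusted p = 0.00354, and 1.0 without the clutch in the model). The SMYD1 call was lost without clutch 9 or clutch 11 (adjusted p = 0.115 and 0.0682). The share called in the muscle list was 2.13%, against 1.48% of all genes. The 24 genes of the yolk syncytial layer summed to 30200, 29600 and 29800 CPM in mon and to 28400, 28400 and 27600 CPM in siblings. The part of muscle and yolk layer levels in the results below was not tested.

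Among genes outside the blood lists, those of synapses and neural adhesion gave the most calls of the 22 lists for other tissues and processes, the 3 lists added later aside. Of 37 tested 5 were higher and none was lower (4 higher without the clutch in the model), 13.5% against the 1.48% of all genes, while their median log2 fold change was 0.01. This list too was chosen with earlier results of these data known, so the share is a description and not a test. The proteoglycan gene NCAN (ENSDARG00000005783), a component of the matrix around neurons, stood at 21.5, 18.9 and 22.3 CPM in mon and at 6.51, 5.77 and 7.38 CPM in siblings. The groups were far apart and the rise was 3.19-fold (log2 1.68 ± 0.10, edgeR, adjusted p = 2.85e-25). The receptor phosphatase gene PTPRD (ENSDARG00000104937), which organises synapses, averaged 40.3 ± 3.22 CPM in mon and 14.9 ± 1.45 CPM in siblings (SD, n = 3 each; log2 1.43 ± 0.08, edgeR, adjusted p = 6.48e-28).

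The synaptic adhesion gene LRRTM4 (ENSDARG00000106522) stood at 5.18, 3.90 and 4.99 CPM in mon and at 0.356, 0.696 and 0.513 CPM in siblings (log2 3.14 ± 0.29, edgeR, adjusted p = 1.5e-14). For atp2b2, a pump that clears calcium from the cell, the rise was 2.40 ± 0.26, and for the neuroligin gene nlgn1 it was 1.06 ± 0.30 (edgeR, adjusted p = 8.85e-11 and 0.0412). The nlgn1 call was lost without the clutch in the model (0.139). None of 31 neuron genes and none of 27 genes of neural progenitors was called by edgeR at 22 hpf with the clutch or without it, nor by DESeq2 or limma-voom. An unadjusted p under 0.05 was seen for 7 of the 31 neuron genes (22.6%) and 0 of the 27 progenitor genes, against 1870 of all 21778 genes (8.59%). Further genes known for roles in neurons rose outside these lists, the AMPA receptor gene gria4a by 1.49 ± 0.27 and brinp1 by 1.71 ± 0.29 (edgeR, adjusted p = 4.97e-05 and 1.36e-05). The calcium exchanger gene SLC24A2 (ENSDARG00000063158) rose by 1.66 ± 0.38 (edgeR, adjusted p = 0.00359). Its call was lost without the clutch in the model (0.0631), without clutch 11 (0.0618) and without clutch 13 (0.093). The genes gria4a, brinp1 and SLC24A2 were taken from the largest rises, so they give no direction for neuronal genes as a whole. Roles in neurons were not counted among the largest falls, which include crhbp (log2 -2.84 ± 0.37) and slc10a4 (-2.29 ± 0.36).

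The adhesion receptor gene adgrg11 (ENSDARG00000041413) had the largest rise among the called genes ranked outside the blood lists. Those ranked had a mean of at least 1 CPM, all clutches in 1 direction and a symbol that is not a clone or locus name. The level of adgrg11 was 5.18, 5.67 and 6.97 CPM in mon and 0, 0.0994 and 0.154 CPM in siblings (log2 6.05 ± 0.46, edgeR, adjusted p = 4.42e-19). The cell death gene bmf2, next to adgrg11 in the GRCz12tu order of genes, stood at 4.16, 3.54 and 4.18 CPM in mon and at 0.763, 1.29 and 1.18 CPM in siblings, a rise of 1.88 ± 0.31 (adjusted p = 1.1e-05). It was the only gene called among 17 p53 targets, a share of 5.88% against 1.48% of all genes.

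The protease gene PAPPA (ENSDARG00000101090), whose product releases insulin-like growth factors from their binding proteins, stood at 39.2, 48.2 and 55.2 CPM in mon and at 7.58, 10.5 and 10.8 CPM in siblings. This is a rise of 4.93-fold (log2 2.30 ± 0.10, edgeR, adjusted p = 5.42e-35), and it was 2.19 to 2.37 in log2 within each clutch. No other of the 22 genes of the insulin-like growth factor axis was called, which puts the share called at 4.55% against 1.48% of all genes.

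The remaining large rises had weaker support. The sugar transporter gene slc5a9 rose by 2.31 ± 0.34 (edgeR, adjusted p = 5.26e-07). The genes fank1, C2CD4C (ENSDARG00000079876), tnfrsf14 and PLAU (ENSDARG00000039145) rose by 1.83 ± 0.41, 1.76 ± 0.36, 1.38 ± 0.26 and 1.48 ± 0.35, all called within clutches (edgeR, adjusted p from 0.00015 to 0.0106). None of these 4 was called without the clutch in the model (adjusted p = 0.0936, 0.255, 0.534 and 0.568). Leaving out 1 clutch ended the call of fank1 (adjusted p = 0.228 without clutch 9 and 0.092 without 13), of C2CD4C (0.264 without 11) and of tnfrsf14 (0.0769 without 13). It ended that of PLAU whichever clutch was left out (adjusted p = 0.0733, 0.126 and 0.126 without 9, 11 and 13).

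**Figure D3:**
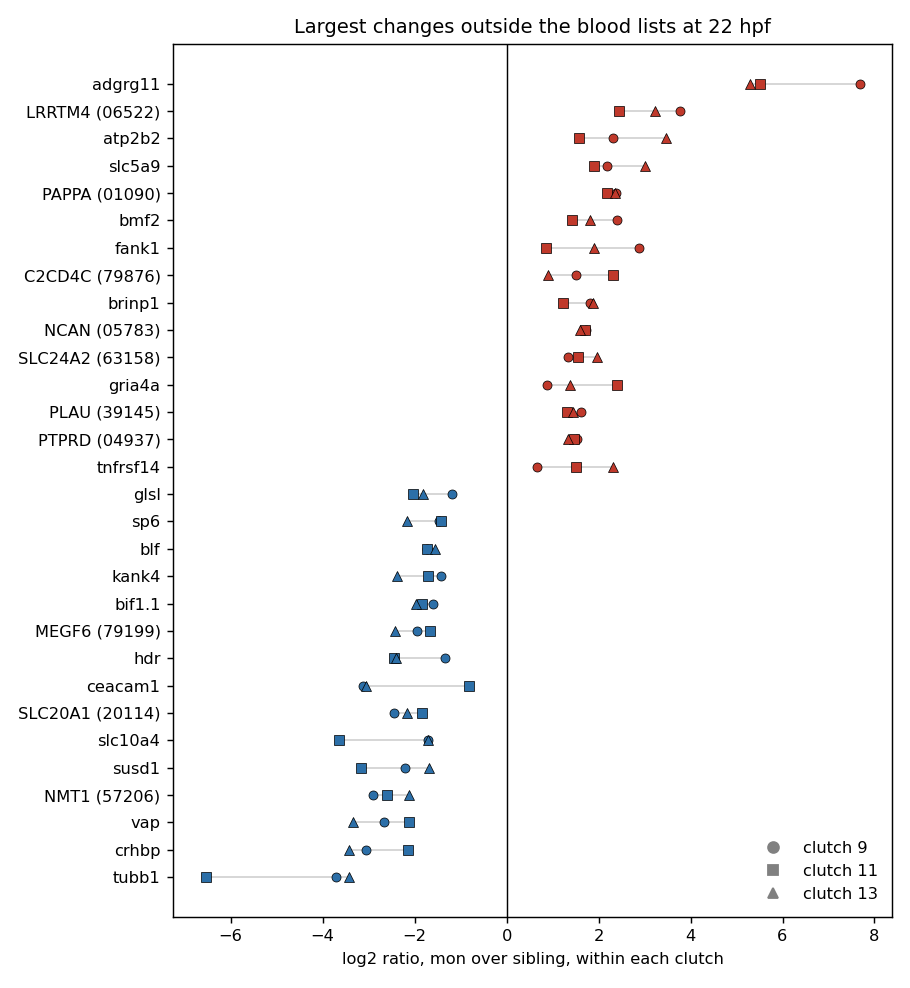
Log2 ratio of mon over sibling within each clutch for 30 called genes outside the blood lists, the 15 that rose most and the 15 that fell most. Only genes with a mean of at least 1 CPM and a symbol that is not a clone or locus name were ranked. Points are clutches, risen genes are red and fallen genes blue, and digits in brackets are the last digits of the Ensembl ID where the symbol is that of an orthologue. All 3 clutches lie on the same side of 0 for each gene, which the choice of genes required.

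Several of the largest falls outside the lists were of genes with known links to blood. The gene tubb1, for the beta tubulin known from platelets, stood at 0.242, 0 and 0.268 CPM in mon and at 3.46, 2.09 and 3.13 CPM in siblings (17.1-fold lower, edgeR, adjusted p = 8.5e-15). The hematopoietic death receptor gene hdr fell by 2.04 ± 0.17 and the zinc finger gene blf, named bloody fingers, by 1.68 ± 0.15 (adjusted p = 1.21e-14 and 4.07e-14). They were not in the blood lists, so the count of 133 lower genes outside those lists is not a count of genes unrelated to blood.

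Other large falls were of genes of varied function. The gene crhbp, for a binding protein of corticotropin-releasing hormone, stood at 0.532, 0.544 and 0.161 CPM in mon and at 4.58, 2.49 and 2.00 CPM in siblings (log2 -2.84 ± 0.37, edgeR, adjusted p = 1.45e-08). The gene vap stood at 0.290, 0.544 and 0.322 CPM in mon and at 1.98, 2.44 and 3.49 CPM in siblings (log2 -2.72 ± 0.35, adjusted p = 9.98e-09). The epidermal growth factor domain gene MEGF6 (ENSDARG00000079199) fell by 1.99 ± 0.20, the phosphate transporter gene SLC20A1 (ENSDARG00000020114) by 2.16 ± 0.28 and the transcription factor gene sp6 by 1.66 ± 0.30 (edgeR, adjusted p = 1.01e-12, 5.13e-09 and 6.36e-05). Among the others NMT1 (ENSDARG00000057206), for an N-myristoyltransferase, fell by 2.56 ± 0.18, susd1 by 2.34 ± 0.26, slc10a4 by 2.29 ± 0.36, ceacam1 by 2.09 ± 0.33, bif1.1 by 1.83 ± 0.32, kank4 by 1.80 ± 0.21 and glsl by 1.64 ± 0.32. Of these 7, ceacam1 and glsl were not called without the clutch in the model (edgeR, adjusted p = 0.179 and 0.091). The log2 fold change of ceacam1 was -1.44 without clutch 9 and -3.18 without clutch 11.

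Lists of most other tissues and processes held few calls or none, although the share called in some lay above the 1.48% of all genes. It was 12.5% for the yolk layer, 10.0% for the hatching gland, 8.33% for epidermis, 6.67% for endothelium, 5.56% for lens and 5.0% for pronephros. An unadjusted p under 0.05 (edgeR) was seen for 50.0, 10.0, 29.2, 23.3, 5.56 and 25.0% of their genes, in that order, against 8.59% of all genes. The call in the hatching gland list was klf17, also an erythroid regulator. In the pronephros list it was SLC20A1 (ENSDARG00000020114). Endothelium had 2 lower of 30, AQP1 and the scavenger receptor gene stab2, which fell by 0.40 ± 0.06 (edgeR, adjusted p = 2.43e-06, and 0.116 without the clutch in the model). Epidermis had 1 lower, the claudin gene cldni (log2 -0.28 ± 0.04), and 1 higher, the keratin gene krt18a.1, of 24. The rise of krt18a.1 by 0.12 ± 0.03 (adjusted p = 0.0286) was lost without the clutch in the model (1.0) and without clutch 13 (0.71). The yolk layer had 2 higher and 1 lower of 24, all within 0.20 of 0 on the log2 scale. Its lipoprotein gene apobb.1 rose by 0.11 ± 0.02 (adjusted p = 0.000482, and 0.101 without clutch 13). Its retinol carrier gene rbp4 fell by 0.20 ± 0.05 (adjusted p = 0.00615, and 0.159 and 0.136 without clutches 11 and 13). Neither was called without the clutch in the model (adjusted p = 0.321 and 1.0). In the lens list the water channel gene MIP (ENSDARG00000013963) was higher by 2.00 ± 0.46 (adjusted p = 0.00415), lost without the clutch in the model (0.374) and without clutch 13 (0.29).

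Metabolic lists held few calls or none. The title of the series names energy metabolism, so 4 such lists were counted. With the clutch in the model 0 of 56 genes of the respiratory chain, 0 of 27 of glycolysis, 0 of 23 of coenzyme Q and pyrimidine synthesis and 1 of 21 of the TCA cycle were called. The last was kgd4, for a subunit of the oxoglutarate dehydrogenase complex, at 9.15, 11.7 and 10.9 CPM in mon and 15.3, 18.1 and 16.9 CPM in siblings (log2 -0.67 ± 0.11, edgeR, adjusted p = 8.1e-06). The share called over all genes was 1.48%, and lists of this size would hold few calls at that share. An unadjusted p under 0.05 (edgeR) was seen for 1.79, 11.1, 8.7 and 9.52% of the genes of these lists, in the order above, against 8.59% of all genes. Medians of the 4 lists lay within 0.03 of 0. No gene of 35 for DNA replication and mitosis, 18 of heart, 17 of notochord, 25 of pigment cells or 25 of somites was called either. The 10 lists without a call held 284 genes, of which 22 had an unadjusted p under 0.05 in edgeR, 0 were called by DESeq2 and 1 was called by limma-voom. Over all 21778 genes these counts were 1870, 175 and 314.

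Genes of the chromosome that carries trim33 were called more often than those of others. Places were read from the GRCz12tu order of genes, which held 14141 of the tested genes (64.9%) and 198 of the called ones. The chromosome of trim33 held 40 of the 198 (20.2%), against 612 of the 14141 (4.33%). Its placed genes were called at 6.54%, against 0.179 to 2.32% on each of the other 24 chromosomes. Of the 40 genes, which include trim33 itself, 26 were higher and 14 lower, 34 were in no blood list, and 10 were called without the clutch in the model. At 30 hpf 7.52% of its placed genes were called, against 1.83 to 4.49% on each of the others. Of the genes above that had a place it carries alas2, cpox, slc25a37, gp1bb, gclm, cebpb, kgd4, slc5a9 and tnfrsf14. In that order alas2, cpox and slc25a37 lie 305, 209 and 1313 genes from trim33. Genes shown under a symbol in capitals, such as NCAN, PTPRD, LRRTM4, PAPPA, EPX, SLC4A1 and NMT1, had no place. Whether they lie on this chromosome was not checked. Mutants were chosen by phenotype, so they also share the variants linked to the mutated trim33. Effects of such variants and of the mutation itself cannot be told apart for genes of this chromosome. How far from trim33 such variants reach was not tested. On the other chromosomes 158 of 13529 placed genes were called (1.17%), 123 of them in no blood list.

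The 30 hpf libraries gave a contrast of other libraries than that at 22 hpf, although clutch 9 gave libraries at both. Both contrasts come from 1 fit with a shared estimate of the spread, so the calls at the stages are not independent. At 30 hpf 673 genes were called (3.09%), 334 higher (1.53%) and 339 lower (1.56%), and 167 genes were called at both stages in the same direction, 51.9% of the 322 and 24.8% of the 673. Of the 54 blood list genes called at 22 hpf 50 were called in the same direction at 30 hpf, and of the 268 others 117 were. A pair of genes was called in opposite directions at the stages, chosen here after their values were seen, TNC (ENSDARG00000078362, log2 0.72 at 22 hpf and -0.42 at 30 hpf) and si:dkeyp-110a12.4 (-0.56 and 0.38). The difference between the stages was itself called for 105 genes of 21778 (0.482%), and for 57 of the 322. Without the clutch in the model it was called for 19 genes.

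Several blood genes differed more at the later stage. Most globins were further from siblings at 30 hpf, where hbbe3 fell by 9.63 ± 0.11 (edgeR, difference between stages 3.28 ± 0.33, adjusted p = 8.05e-08, and 0.0136 without the clutch in the model). The difference was not called for hbae1.1, hbae1.3, hbae4 and hbae5 (edgeR, adjusted p = 0.0764, 0.197, 0.409 and 0.742) or for HBE1 (ENSDARG00000045143, 0.0764). Of these hbae5, without reads in mon at 22 hpf, had the smaller fitted fall at 30 hpf (log2 -8.38 at 22 hpf and -5.35 at 30 hpf). At 30 hpf the carbonic anhydrase gene cahz stood at 5.51, 3.73 and 5.23 CPM in mon (clutches 3, 4 and 9) and at 67.3, 62.3 and 71.5 CPM in siblings, a log2 fold change of -3.80 against -0.46 at 22 hpf (difference 3.34 ± 0.13, adjusted p = 4.75e-37). The gene nt5c2l1, not called at 22 hpf, fell by 1.99 ± 0.10 at 30 hpf (difference 2.10 ± 0.14, adjusted p = 4.62e-22). Both differences were called without the clutch in the model too (adjusted p = 0.00473 and 8.9e-06).

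Other genes were closer to siblings later. The gene tfr1a fell by 3.44 ± 0.08 at 30 hpf, less than at 22 hpf (edgeR, difference -0.98 ± 0.13, adjusted p = 1.36e-07, and 0.00672 without the clutch in the model). The gene EPX stood at 10.5, 16.2 and 11.5 CPM in mon and at 14.6, 22.6 and 18.2 CPM in siblings at 30 hpf, a fall of 0.54 ± 0.13 there against 4.76 at 22 hpf (difference -4.22 ± 0.35, adjusted p = 1.53e-16, and 0.0011 without the clutch in the model). At 30 hpf NCAN was not called. It stood at 38.9, 42.0 and 45.9 CPM in mon and at 45.7, 41.7 and 47.1 CPM in siblings (log2 -0.09 ± 0.07, difference 1.76 ± 0.13, adjusted p = 5.35e-20). Neither was atp2b2 (log2 -0.21 ± 0.22, difference 2.61 ± 0.35, adjusted p = 1.36e-07), and that of PTPRD was smaller (0.56 ± 0.07, difference 0.87 ± 0.10, adjusted p = 1.29e-09). The differences of these 3 genes were called without the clutch in the model as well (edgeR, adjusted p = 2e-05, 0.00672 and 0.00672). For LRRTM4 and adgrg11 the log2 fold changes at 30 hpf were 1.88 and 2.55, and their difference between stages did not pass the test (adjusted p = 0.18 and 0.127).

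**Figure D4:**
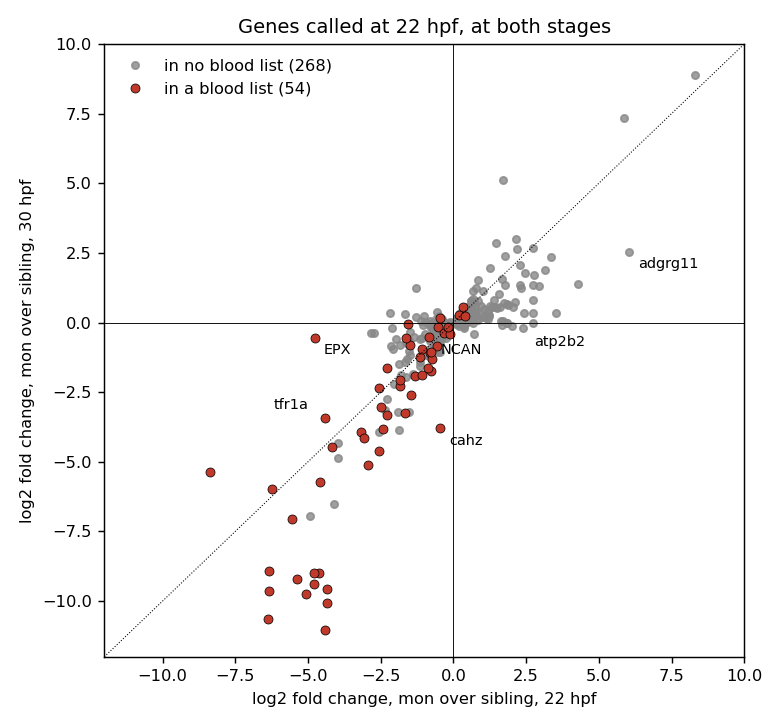
Log2 fold change, mon over sibling, at 22 hpf (horizontal axis) and at 30 hpf (vertical axis) for the 322 genes called at 22 hpf. Blood list genes are red, others grey, and the dotted line marks equal values. Most globins lie far below the line, at a list median of -4.80 at 22 hpf, while hbae5 lies above it (-8.38 at 22 hpf and -5.35 at 30 hpf). The genes EPX, NCAN and atp2b2 lie at -0.54, -0.09 and -0.21 on the vertical axis.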

How the data were processed

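RNA of whole embryos was depleted of ribosomal RNA, spiked with ERCC controls and made into directional libraries, per the labels' protocols. The authors deposited raw read counts per gene, as 1 table of 32520 Ensembl IDs. The submitters' processing notes name HTSeq, TopHat2 2.0.11, Cufflinks 2.2.1, FastQC and cutadapt, and the genome GRCz11. What annotation release, strand setting or filter was applied is not given in the sources used here, so overlapping and antisense genes may share reads.

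The counts of all 12 libraries entered 1 fit in R 4.3.3 with edgeR 4.0.16 (glmQLFit robust, glmQLFTest), TMM factors and filterByExpr, with the 4 groups and the clutch as a block (4 residual degrees of freedom, common biological coefficient of variation 0.0604). Clutches pair the libraries because each is the offspring of 1 mating. Deviations from group means correlated at 0.673 to 0.69 within clutches of 22 hpf and at -0.366 to -0.298 between them, over 10884 genes. The deviations of the 3 libraries of a group sum to 0, so the negative values between clutches follow from the positive ones within and are no separate evidence. Between libraries of 1 group the chi-square per gene was 8.49 to 10.8, above sampling noise, so none was a repeat. Benjamini-Hochberg adjustment ran over 21778 genes. The SE of a log2 fold change is its size divided by the root of its F value. Alternatives were a fit without the block, the 6 libraries of 22 hpf alone, DESeq2 1.42.0, limma-voom (limma 3.58.1), RLE factors, no filter, and each clutch left out in turn (both of its 22 hpf libraries). The edgeR fit was tested on simulated data. CPM floors cover counting error only.

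The members and lists were chosen with earlier results of these data known. Named genes were 12 fixed ones, up to 5 called members of smallest p of each of the 10 blood lists and up to 2 of each of the 22 other lists, the 15 risen and 15 fallen genes outside the blood lists with the largest fold change (mean of at least 1 CPM, all clutches in 1 direction, a descriptive symbol), and up to 3 in each direction for the difference between stages. Other genes were named after their values were seen. The 3 further lists were chosen after values were seen. Symbols matched 29201 IDs (89.8%), and a symbol in capitals is an orthologue's. Of 805 list names 23 matched no ID. No coordinates are given, since the GRCz12tu gene order used for places differs from the build of the counts.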

Additional observations from a re-analysis of the deposited data

Results flagged for a closer look

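For 31 of the named genes the effect of the mutation differed between the stages by a test of the difference itself (edgeR, 22 hpf minus 30 hpf in log2, adjusted p under 0.05 within clutches). A positive value means a deeper fall, or a smaller rise, at 30 hpf.

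Among blood genes positive values were 5.71 for hbae1.2, 4.67 for HBE1 (ENSDARG00000113599), 4.58 for hbae3, 3.28 for hbbe3, 2.58 for SLC4A1 (ENSDARG00000012881), 1.15 for alas2 and 1.14 for urod. The later red cell genes cahz and nt5c2l1 were at 3.34 and 2.10, the draculin relative znfl2a at 0.75 and the ferritin gene fth1a at 0.28. NMT1 (ENSDARG00000057206), which is in no blood list, was at 1.37.

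Blood genes with negative values, whose fall was deeper at 22 hpf, were EPX (ENSDARG00000019521) at -4.22, AQP1 (ENSDARG00000023713) at -1.07, tfr1a at -0.98, sptb at -0.66 and cpox at -0.64. SLC2A1 (ENSDARG00000001437) was at -0.64. The genes stab2 and trim33, which are in no blood list, were at -0.53 and -0.49.

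Outside the blood lists atp2b2 (2.61), MIP (ENSDARG00000013963, 2.13), NCAN (ENSDARG00000005783, 1.76), brinp1 (1.65), PAPPA (ENSDARG00000101090, 0.94) and PTPRD (ENSDARG00000104937, 0.87) were higher in mon at 22 hpf by more than at 30 hpf. Genes with the deeper fall at 22 hpf were crhbp (-2.45), vap (-2.34), sp6 (-1.96) and MEGF6 (ENSDARG00000079199, -1.39). The fibronectin gene FN1 (ENSDARG00000006526, -1.09) rose at 30 hpf only (log2 0.08 at 22 hpf and 1.16 at 30 hpf).

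Without the clutch in the model 12 of the 31 differences were called (EPX, FN1, NCAN, PTPRD, atp2b2, cahz, hbae1.2, hbae3, hbbe3, nt5c2l1, tfr1a and urod), and the adjusted p of the other 19 lay between 0.106 (vap) and 1.0 (edgeR). Without clutch 9 the differences of alas2 and hbae3 were lost (edgeR, adjusted p = 0.174 and 0.0803). Without clutch 13 those of SLC4A1 (0.739), MIP (0.286), znfl2a (0.134), brinp1 (0.0814), NMT1 (0.0606) and sp6 (0.0554) were lost. DESeq2 did not call SLC4A1 (adjusted p = 0.759), alas2 (0.583), znfl2a (0.16), sp6 (0.0878), crhbp (0.0566) or brinp1 (0.0541), and limma-voom did not call MIP (0.506) or brinp1 (0.145).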

How the results depend on the processing

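The clutch block moved the count most. With it 322 genes were called at 22 hpf, and the fit with no replicate block called 97, of which 29 were higher and 68 lower. On the 6 libraries of 22 hpf alone the counts were 357 with the block and 63 without it (15 higher and 48 lower). DESeq2 called 175 genes, 65 higher and 110 lower, 174 of them among the 322, and limma-voom called 314, RLE factors 321 and no filter 371. Without 1 clutch the count ranged from 221 to 285, with 79 to 129 higher and 134 to 156 lower, and the lowest number of higher genes was that without clutch 11. The share of higher calls was 138 of 322 with the block and 29 of 97 without it. The difference between stages was called for 105 genes with the block, 19 without it, 52 by DESeq2 and 81 to 123 without 1 clutch. No named gene changed sign under any alternative run. Of the 84 named genes 25 lost their call without the block, 36 on the 6 libraries without the block, 10 by DESeq2, 2 by limma-voom, and 8, 7 and 12 without clutches 9, 11 and 13. The cause was not tested. Depth limits the lowest genes, and 33 of the 322 called genes had a mean under 1 CPM.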

Other observations

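Genes of the fin fold and of its apical ridge, the thickened epidermis that drives fin outgrowth, were lower in mon at 22 hpf where they were called. This list and the next ones were chosen after values were seen, so the counts are descriptions. Of 37 genes 9 were lower and none higher, with a median log2 fold change of -0.14, and 2 were lower without the clutch in the model. Over all genes 0.845% were called lower, and 0.312% without the clutch. The basement membrane gene FREM2 (ENSDARG00000076856) stood at 69.4, 64.4 and 64.9 CPM in mon and at 111, 103 and 99.6 CPM in siblings (log2 -0.66 ± 0.05, edgeR, adjusted p = 6.09e-21, and 7.49e-05 without the clutch). Another gene of the list under the symbol FREM2 (ENSDARG00000102626) was not called (log2 0.01 ± 0.05, edgeR, adjusted p = 0.988). The laminin gene lama5 stood at 493, 456 and 494 CPM in mon and at 556, 540 and 573 CPM in siblings (log2 -0.21 ± 0.03, adjusted p = 1.71e-06, and 0.0517 without the clutch). The transcription factor genes bhlha9 and sp9 fell by 1.86 ± 0.40 and 0.46 ± 0.11, and the ligand gene wnt5a by 2.18 ± 0.54 (edgeR, adjusted p = 0.00154, 0.00813 and 0.0124), none of them called without the clutch. The gene wnt5a lies on the chromosome that carries trim33, 1397 genes from it. Effects of linked variants and of the mutation cannot be told apart there, and how far such variants reach was not tested. The list summed to 1940, 1850 and 1870 CPM in mon and to 2120, 2110 and 2130 CPM in siblings.

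Of 32 immediate early and cytokine response genes 8 were higher and none lower, with a median of 0.17, and 1 was called without the clutch in the model. Over all genes 0.634% were called higher, and 0.133% without the clutch. The cofactor gene SBNO2 (ENSDARG00000016188) stood at 28.7, 28.6 and 35.8 CPM in mon and at 19.5, 19.5 and 18.2 CPM in siblings (log2 0.70 ± 0.09, edgeR, adjusted p = 4.15e-09, and 0.0015 without the clutch). The AP-1 gene JUNB (ENSDARG00000104773) stood at 12.3, 15.9 and 21.7 CPM in mon and at 9.10, 7.86 and 10.5 CPM in siblings (log2 0.84 ± 0.12, adjusted p = 4.06e-07, and 0.0631 without the clutch). The cytokine signalling inhibitor gene SOCS3 (ENSDARG00000026611) rose by 0.67 ± 0.14 (adjusted p = 0.00154, and 0.0936 without the clutch). Other genes of the list under these symbols were not called. They were SBNO2 (ENSDARG00000098801, log2 0.00 ± 0.05), JUNB (ENSDARG00000074378, 0.16 ± 0.19) and SOCS3 (ENSDARG00000025428, 0.75 ± 0.34), with adjusted p of 0.996, 0.919 and 0.475 in edgeR. In clutch 13 the mon library was the highest of the 6 for SBNO2, JUNB, SOCS3, atf3, FOSL1 and cebpb, and it was the lowest of the 3 mon libraries for phlda1 and PLAU.

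Of 29 ionocyte genes 5 were lower and 1 higher, with none called without the clutch in the model, against 1.48% and 0.445% of all genes. Among the 5 is cahz, also counted as a red cell gene. The sodium pump gene atp1a1a.2 averaged 3.82 ± 1.92 CPM in mon and 11.1 ± 4.55 CPM in siblings (SD, n = 3 each) and was lower in each clutch, at log2 ratios of -1.40, -1.79 and -1.49 (fitted log2 -1.55 ± 0.12, edgeR, adjusted p = 1.5e-14, and 0.489 without the clutch). The anion exchanger gene SLC4A2 (ENSDARG00000028173) fell by 0.57 ± 0.06 (adjusted p = 1.31e-11, and 0.126 without the clutch). Another gene of the list under that symbol (ENSDARG00000052330) was not called (log2 -0.08 ± 0.07, edgeR, adjusted p = 0.872). The ionocyte factor genes foxi3a (log2 -0.48 ± 0.17, adjusted p = 0.205) and foxi3b (-0.13 ± 0.15, adjusted p = 0.912) were not called.

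The lymphocyte antigen relative ly6m3 (ENSDARG00000099416) had no read in siblings at either stage and stood at 0.242, 2.95 and 2.47 CPM in mon at 22 hpf. With the sibling group set to 3 counts over its libraries this is 37.4-fold higher. The gene lamp3 was likewise at 0 in siblings at 22 hpf, against 0.0968, 0.318 and 0.644 CPM in mon, 6.77-fold higher with the same setting. Both were chosen because their sibling libraries held no read, so these folds depend on that choice and are descriptions, neither lower bounds nor tests.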
